A study of Homo sapiens with 4 samples.

Results

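The 4 HOX clusters are the chromosomal stretches that hold the HOX genes, and the CDK8 peaks described here are those with at least 1 bp inside 4 windows of the genome build GRCh37/hg19. The windows were HOXA on chromosome 7 (27120 to 27260 kb), HOXB on chromosome 17 (46590 to 46820 kb), HOXC on chromosome 12 (54320 to 54460 kb) and HOXD on chromosome 2 (176930 to 177070 kb). They held 104 of the 56111 peaks listed in all 3 libraries. Joining touching or overlapping peaks of the libraries gave 52 regions in the windows, of 28150 regions in all.

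The cells were HCT116, an established human colorectal cancer line with no stated genetic change. CDK8 was mapped by chromatin immunoprecipitation and sequencing (ChIP-seq) in 1 library from normoxic cells and in 2 replicate libraries from cells held at 1% oxygen for 24 h. All 3 were made with the same lot of antibody; an input DNA library was not analysed here. The hypoxia libraries are called hypoxia 1 and hypoxia 2 here, and values are given in the order normoxia, hypoxia 1, hypoxia 2. Separate cultures are not stated for the hypoxia pair, whose difference may therefore be technical, and normoxia has no replicate.

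HOX genes encode homeodomain transcription factors that set position along the body axis. In each cluster the genes lie in order of the body level at which they act, from low-numbered anterior genes to high-numbered posterior ones, and posterior members are known for roles in the hindgut. CDK8 is the kinase of a module that binds Mediator, the complex that links transcription factors to RNA polymerase II. Where silent, HOX clusters are known to be covered by Polycomb proteins; where active, promoters and enhancers along the cluster recruit Mediator.

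RefSeq lists 39 HOX genes in the 4 clusters, 11 in HOXA, 10 in HOXB, 9 in HOXC and 9 in HOXD. By their order on GRCh38.p14, HOXA13 and HOXB13 lie at the high-coordinate end of their clusters, and HOXB1 at the low-coordinate end of HOXB. HOXC13 and HOXD13 lie at the low-coordinate end, with HOXC4 and HOXD1 at the far end. An annotation of GRCh37/hg19 was not used here, so peaks were placed by distance from the start of a window and none was assigned to a gene, promoter, exon or intron.

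The clusters also carry microRNA genes, shown here because a family with a shared seed spans 3 of the 4. MIR196B lies in HOXA, MIR196A1 in HOXB and MIR196A2 in HOXC, and MIR10A lies in HOXB. Mature sequences from RefSeq (GRCh38.p14) are given 5′ to 3′ with the seed, bases 2 to 8, in capitals:
hsa-miR-196a-5p: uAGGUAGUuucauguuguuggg
hsa-miR-196b-5p: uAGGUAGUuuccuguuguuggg
hsa-miR-10a-5p: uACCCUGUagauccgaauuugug
The miR-196 sequences share the seed AGGUAGU and differ by A12C, counted from the 5′ end of miR-196a-5p. The miR-10a-5p seed is ACCCUGU.

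The promoters of the HOX genes were searched for ACGTG, the core letters of the hypoxia response element bound by HIF1A, a partner of CDK8 in hypoxic transcription. The search covered both strands of the 250 bases before each start, and overlapping matches counted once. RefSeq sequences were matched for 20 of the 39 genes, with 27 starts. ACGTG was found before 15 of 27 HOX starts (55.6%), against 18.5% of 35116 starts of all genes. By cluster the counts were 7 of 16 starts in HOXA, 6 of 8 in HOXD, 0 of 1 in HOXB and 2 of 2 in HOXC, where HOXC4 and HOXC5 share 1 start. The pooled share thus describes HOXA and HOXD. The 16 HOXA starts belong to 9 genes, several of them to HOXA3. HOX promoters were richer in CG: the median was 19 CG dinucleotides, against 11 over all starts. Among starts with at least 19 CG dinucleotides the shares were 9 of 15 for HOX and 24.1% of 12166 for all. A match describes letters and no binding, and whether any CDK8 peak lies over these promoters was not tested. The 3 HOX promoters with 2 separate matches are printed with the matches in capitals, 5′ to 3′, on GRCh38.p14:
HOXA11, chr7:27185233-27185482, minus strand: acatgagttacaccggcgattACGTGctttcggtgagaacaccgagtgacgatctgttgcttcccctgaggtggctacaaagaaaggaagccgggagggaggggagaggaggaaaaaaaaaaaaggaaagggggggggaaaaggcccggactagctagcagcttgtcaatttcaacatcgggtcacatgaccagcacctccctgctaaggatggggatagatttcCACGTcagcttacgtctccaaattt
HOXD11, chr2:176107030-176107279, plus strand: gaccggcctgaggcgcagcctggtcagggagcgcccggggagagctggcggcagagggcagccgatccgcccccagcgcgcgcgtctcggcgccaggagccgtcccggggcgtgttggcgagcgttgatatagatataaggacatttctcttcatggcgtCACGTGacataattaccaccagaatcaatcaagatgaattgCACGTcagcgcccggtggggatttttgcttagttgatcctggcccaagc
HOXD3, chr2:176157057-176157306, plus strand: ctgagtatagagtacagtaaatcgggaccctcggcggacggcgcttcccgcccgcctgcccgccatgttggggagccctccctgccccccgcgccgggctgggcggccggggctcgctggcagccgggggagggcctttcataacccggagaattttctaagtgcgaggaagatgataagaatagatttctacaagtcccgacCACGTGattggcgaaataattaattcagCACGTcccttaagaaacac
HOXA11 and HOXD11 are posterior genes that pattern limbs and the urogenital tract, and HOXD3 is an anterior gene. In HOXD11 and HOXD3 the first match is the palindrome CACGTG, which E-box factors such as MYC also bind. The palindrome also stands before HOXD13, HOXD10, HOXD1, HOXA4, HOXA9 and a start of HOXA3. The share of starts with ACGTG therefore does not separate hypoxia response elements from E-boxes.

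CDK8 peaks were densest in HOXA in every library. HOXA held 28 peaks in normoxia, 25 in hypoxia 1 and 11 in hypoxia 2. HOXB held 8, 8 and 6, HOXC 7, 5 and 2, and HOXD 2, 1 and 1, in the same order of libraries. Of the peaks in the 4 windows, HOXA therefore held 62.2% (Wilson 95% interval 47.6 to 74.9) in normoxia, 64.1% (48.4 to 77.3) in hypoxia 1 and 55.0% (34.2 to 74.2) in hypoxia 2. Intervals here and below cover counting error only; neighbouring peaks are not independent, and the lists give no read depth. The lists differ in length, with 19862, 21993 and 14256 peaks.

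**Figure D1:**
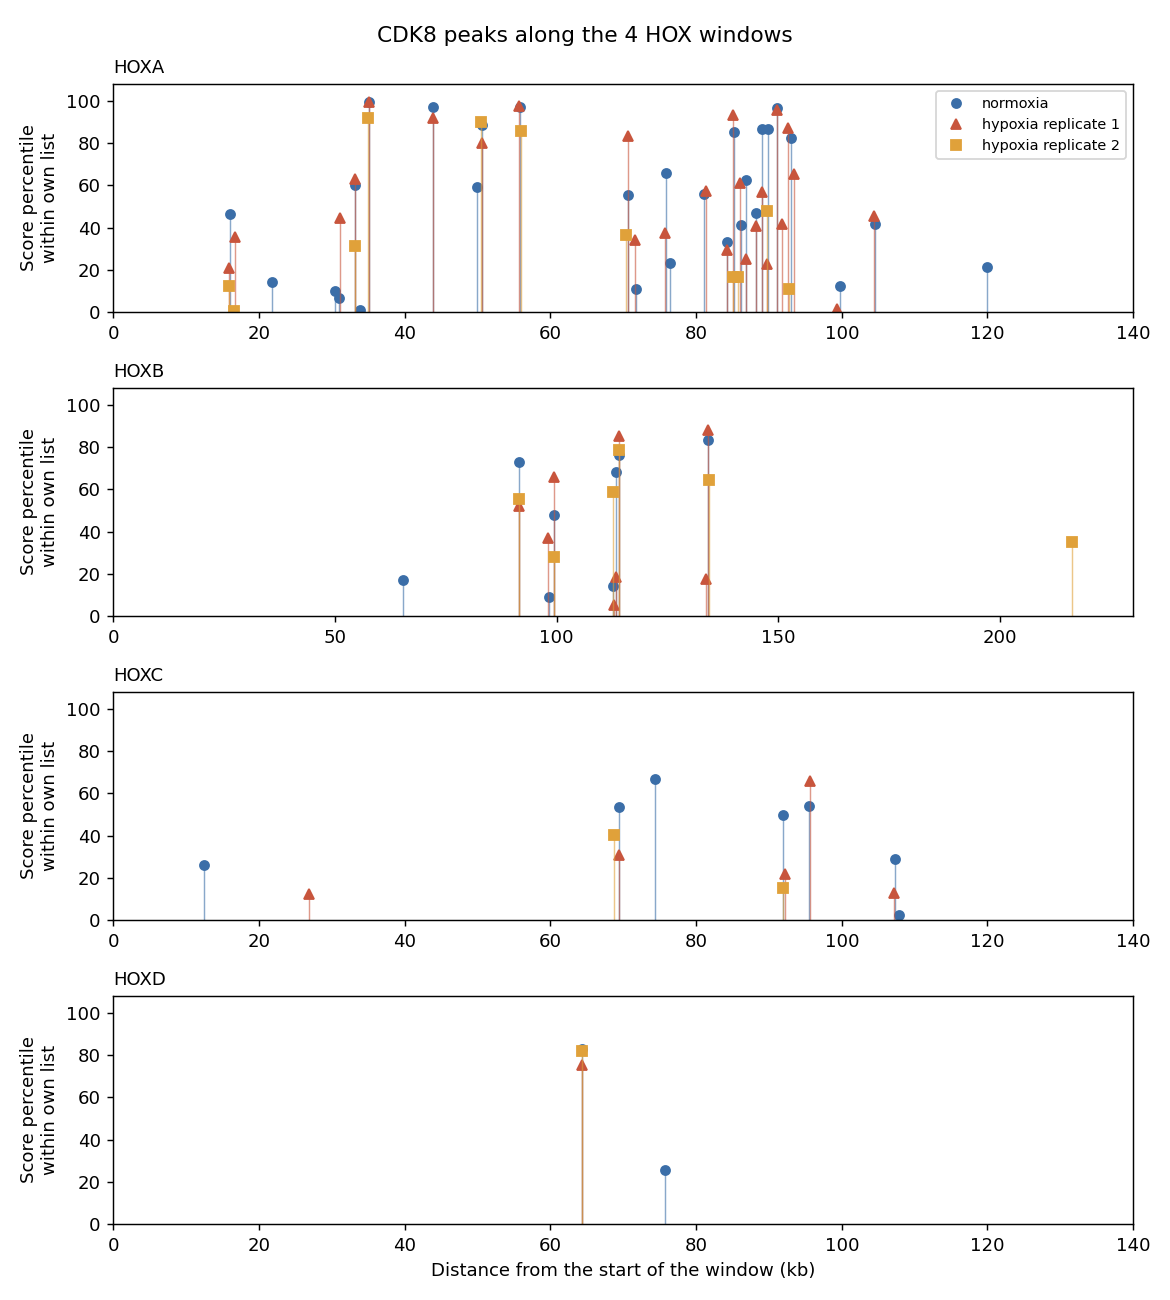
CDK8 peaks along each HOX window; the x axis is the distance of the peak centre from the start of the window in kb and the y axis the percentile of the peak's score within its own list (100 is the best). Circles are normoxia, triangles hypoxia 1 and squares hypoxia 2; HOXA holds 28, 25 and 11 peaks and HOXD 2, 1 and 1.

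Per 100 kb, HOXA held 20.0 peaks in normoxia (exact Poisson 95% interval 13.3 to 28.9), 17.9 (11.6 to 26.4) in hypoxia 1 and 7.86 (3.92 to 14.1) in hypoxia 2. The other 3 windows together held 3.33, 2.75 and 1.76. The ratio of HOXA to these was 6.0 (exact 95% interval 3.17 to 11.7) in normoxia, 6.51 (3.25 to 13.5) in hypoxia 1 and 4.45 (1.68 to 12.2) in hypoxia 2. All 3 intervals lay above 1, but with the better-scoring 50% of each list the ratio in hypoxia 2 was 2.19 (0.339 to 11.2). Of the 6 pairs of clusters, the 3 with HOXA had intervals above 1 in all 3 libraries, the lowest bound being 1.02, for HOXA over HOXB in hypoxia 2. The 3 pairs among HOXB, HOXC and HOXD had intervals that held 1 in every library. HOXB over HOXC, for example, was 0.696 (0.220 to 2.25) in normoxia, 0.974 (0.281 to 3.78) in hypoxia 1 and 1.83 (0.327 to 18.5) in hypoxia 2. Those clusters could not be ranked at this number of peaks.

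HOXA also stood out from the DNA beside it. The 500 kb on either side held 4 peaks in normoxia, 5 in hypoxia 1 and 3 in hypoxia 2, or 0.400, 0.500 and 0.300 per 100 kb. The window's density was 50.0 times that of its flanks in normoxia (17.5 to 196.2), 35.7 times (13.4 to 119.5) in hypoxia 1 and 26.2 times (6.92 to 146.2) in hypoxia 2. With the better-scoring 50% of each list the ratio in hypoxia 2 was 7.14 (0.957 to 53.3), whose interval holds 1. Peaks covered 10.3%, 8.91% and 3.11% of the bases of the window in these libraries, and 0.136%, 0.179% and 0.108% of the flanks. Chromosome 7 as a whole held 0.625, 0.686 and 0.449 peaks per 100 kb, over the span from its first to its last listed peak. The window lay far above these densities. The HOXA flanks lay below them, but not beyond counting error, with intervals of 0.109 to 1.02, 0.162 to 1.17 and 0.0619 to 0.877.

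HOXB and HOXC exceeded their flanks by less, and not beyond counting error. The HOXB ratio was 2.68 (0.961 to 6.96) in normoxia, 2.05 (0.764 to 5.00) in hypoxia 1 and 2.61 (0.779 to 7.92) in hypoxia 2. The HOXC ratio was 2.50 (0.893 to 6.15), 1.70 (0.501 to 4.63) and 1.10 (0.12 to 4.85) in that order. Both lie among denser surroundings than HOXA: the HOXB flanks held 13, 17 and 10 peaks and the HOXC flanks 20, 21 and 13. HOXD had few peaks on either side of its border, with 3, 2 and 1 in the flanks, and ratios of 4.76 (0.398 to 41.6), 3.57 (0.0605 to 68.6) and 7.14 (0.0910 to 560.7). Added together, HOXB, HOXC and HOXD were 2.78 times (1.46 to 5.08) as dense as their flanks in normoxia, 2.06 times (1.03 to 3.87) in hypoxia 1 and 2.21 times (0.902 to 4.92) in hypoxia 2.

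**Figure D2:**
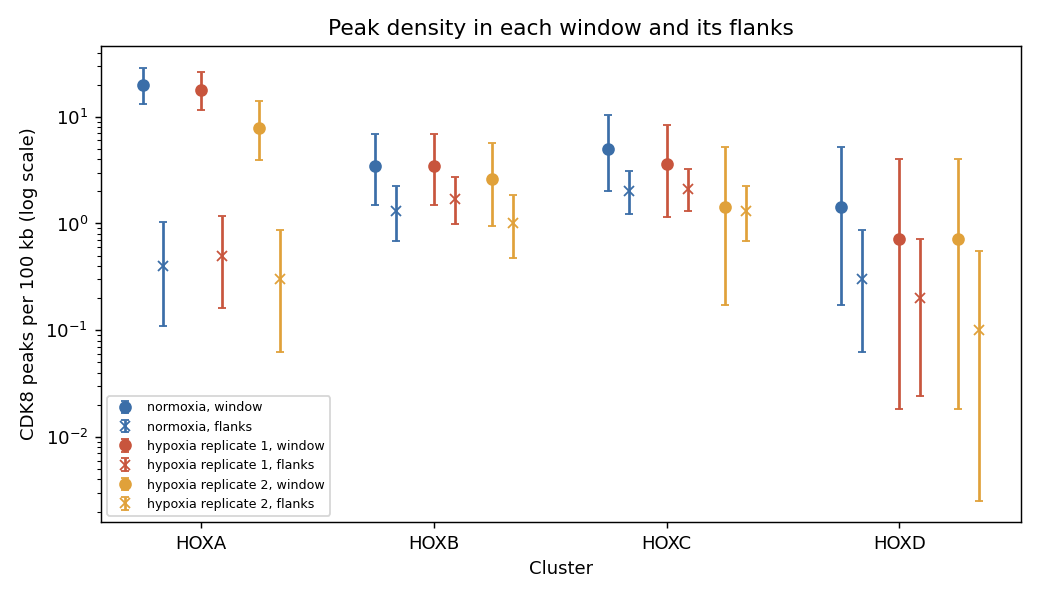
CDK8 peaks per 100 kb (log axis) in each HOX window (circles) and in the 500 kb on either side (crosses), by library, with exact Poisson 95% intervals. HOXA lies at 20.0, 17.9 and 7.86 per 100 kb over flanks of 0.400, 0.500 and 0.300, while window and flank intervals overlap for the other clusters.

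Set beside tiles of the same length laid end to end over all chromosomes, 28 or more normoxia peaks were held by 8 of 21306 tiles of 140 kb (0.0375%). In hypoxia 1, 31 tiles held 25 or more (0.145%), and in hypoxia 2, 87 held 11 or more (0.408%). HOXA was thus among the densest such stretches of each list without being the densest, since a single tile held up to 39, 51 and 30 peaks. For HOXD, by contrast, 19.6% of tiles held at least its 2 normoxia peaks. Of tiles of 230 kb, 4.11% held at least the 8 normoxia peaks of HOXB. HOXC was matched or exceeded by 2.37% of 140 kb tiles in normoxia, 5.44% in hypoxia 1 and 14.5% in hypoxia 2.

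Within HOXA the peaks of normoxia and hypoxia 1 were crowded just past the middle of the window, and those of hypoxia 2 were spread more evenly before its last stretch. The 31 joined regions had a median gap of 676 bp, and 56.7% of the 30 gaps were under 1 kb, against 19.8% of 28125 gaps over all chromosomes. In HOXB 4 of 9 gaps were under 1 kb, in HOXC 2 of 8 and in HOXD 0 of 1. Of 4 equal stretches of 35 kb, counted from the start of the window, the third held 16, 17 and 5 of the peaks and the last, at the HOXA13 end, held 1, 0 and 0. The first held 6, 4 and 4 peaks and the second 5, 4 and 2. HOXA peaks were broader than usual in normoxia and hypoxia 1, with median widths of 453 and 450 bp against 379 and 295 bp over the whole lists. In hypoxia 2 the HOXA median was 285 bp, below the 352 bp of its list.

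The best-scoring HOXA region was the same in all 3 libraries. It lay 35.1 kb into the window (chr7:27154631-27155470, 840 bp), and held 1 peak in each library. Its score stood at percentile 99.1 of the normoxia list, 99.1 of hypoxia 1 and 91.7 of hypoxia 2. A percentile ranks a peak by the authors' score within its own list and is no amount of binding.

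A further pair of regions in the same part of HOXA ranked high in all 3 libraries. The region at chr7:27175487-27176295 (809 bp) stood at percentiles 96.8 in normoxia, 97.3 in hypoxia 1 and 85.9 in hypoxia 2. The region at chr7:27170192-27170844 (653 bp) stood at 88.6, 80 and 89.7. With the leading region, these were the 3 best HOXA peaks of hypoxia 2. Between them, at chr7:27163549-27164159 (611 bp), lay a region at percentile 97.0 in normoxia and 92.0 in hypoxia 1 that hypoxia 2 did not list.

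The densest block lay 80 to 95 kb into the window. There peaks covered 48.0% of the bases in normoxia, with 10 peaks, and 46.3% in hypoxia 1, with 12 peaks. In hypoxia 2, 4 peaks covered 10.5%. Of the 11 regions of the block, 4 were in all 3 libraries, 6 in normoxia and hypoxia 1 only, and 1 in hypoxia 1 alone. The block's edges were chosen after its peaks were seen. Without it, HOXA still held 18, 13 and 7 peaks, at 36.0 times (11.9 to 146.2), 20.8 times (6.96 to 74.5) and 18.7 times (4.26 to 111.9) the density of the flanks.

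**Figure D3:**
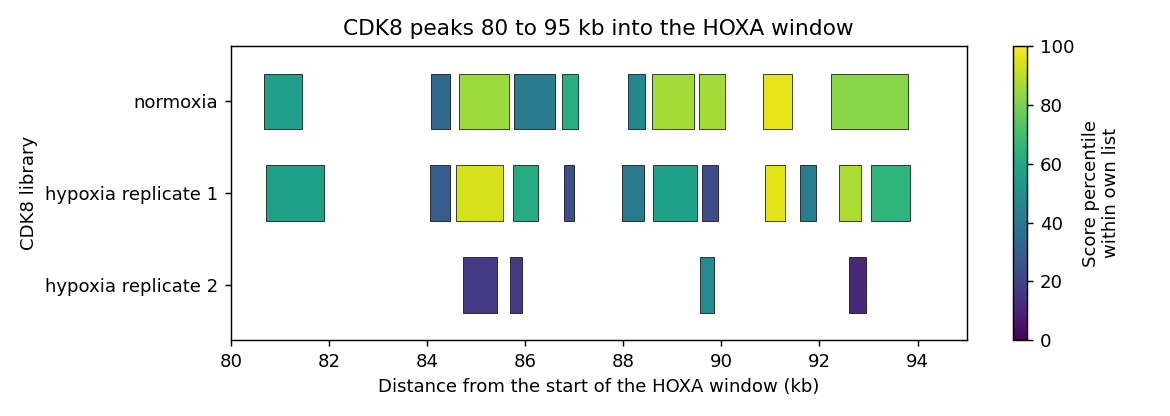
CDK8 peaks 80 to 95 kb into the HOXA window, drawn to scale; each bar is a peak of the library named on the y axis, and its colour is the score percentile within that library's list. Normoxia and hypoxia 1 list 10 and 12 peaks there and hypoxia 2 lists 4, none above percentile 47.7.

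In that block the region at chr7:27210846-27211447 (602 bp) stood at percentile 96.4 in normoxia and 95.3 in hypoxia 1 and was absent from hypoxia 2. The region at chr7:27204584-27205675 (1092 bp) stood at 85.1, 93.4 and 16.5. The widest HOX region, chr7:27212239-27213845 (1607 bp), was 1 broad peak in normoxia, 2 peaks in hypoxia 1 and 1 in hypoxia 2, at percentiles 82.1, 87.2 and 11.1. Regions that were prominent in normoxia and hypoxia 1 were thus low in hypoxia 2 or missing from it. The next by rank were chr7:27208598-27209513, at 86.6 and 56.9 and not in hypoxia 2, and chr7:27209550-27210070, at 86.5, 23.0 and 47.7.

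Of the 12 HOXA regions with the highest percentile in any library, 3 lay outside these stretches. They were chr7:27190178-27191124, at 55.5, 83.4 and 36.4, chr7:27195649-27196179, at 65.9 and 37.4 and not in hypoxia 2, and chr7:27152887-27153388, at 59.9, 62.9 and 31.2. Together 8 of the 12 were in all 3 libraries and 4 in normoxia and hypoxia 1 only. The other 19 regions, 226 to 1204 bp wide, had best percentiles of 1.26 to 62.6, and 2 of them were in all 3 libraries. Of these 19, 7 were in normoxia alone and 7 in normoxia and hypoxia 1 only.

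In HOXB, the middle of the cluster held nearly all of the peaks, and the 57.5 kb at the HOXB1 end held 0 in each library. Among its 10 regions, the highest in normoxia and hypoxia 1 was chr17:46723790-46724714 (925 bp), at percentiles 83.4, 88.2 and 64.3 in normoxia, hypoxia 1 and hypoxia 2. In hypoxia 2 the highest was chr17:46703866-46704292 (427 bp), at 76.4, 85.0 and 78.4. It was the last of 3 neighbouring regions, after chr17:46702595-46703030, at 14.1, 5.46 and 58.5, and chr17:46703111-46703658, at 68.2 and 18.5 in normoxia and hypoxia 1 only.

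A further group of HOXB regions began 91.6 kb into the window. There, chr17:46681123-46681995 stood at 72.8, 52.3 and 55.5, and chr17:46689176-46689708 at 48.0, 65.9 and 28.2. The widest HOXB region, chr17:46687707-46688638 (932 bp), stood at 8.94 and 36.9 and was not in hypoxia 2. The remaining HOXB regions were listed once each: chr17:46655278-46655504 in normoxia at 17.1, chr17:46723538-46723747 in hypoxia 1 at 17.7 and chr17:46805824-46806379 in hypoxia 2 at 35.1. The last lay toward HOXB13, past a gap of 81.1 kb without a peak in any library.

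HOXC held 9 regions, none above percentile 66.9 in any library, and only chr12:54411717-54412276 (560 bp) was in all 3, at 49.9, 22.1 and 15.4. This is its widest region. The highest in normoxia, chr12:54394109-54394485, stood at 66.9 there and was in no hypoxia library. The highest in hypoxia 1 was chr12:54415437-54415706, at 54.0 in normoxia and 65.6 in hypoxia 1. Each library thus had another leading region in HOXC, in contrast to the single leading region of HOXA and of HOXD.

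The highest HOXC peak of hypoxia 2, chr12:54388512-54388845 at 40.1, lay beside chr12:54389193-54389631, which was at 53.5 in normoxia and 30.8 in hypoxia 1. Joining peaks within 500 bp unites them. The region at chr12:54427026-54427476 stood at 29.1 and 13 in normoxia and hypoxia 1. Normoxia alone listed chr12:54332278-54332511 at 25.9 and chr12:54427742-54428073 at 2.56, and hypoxia 1 alone chr12:54346783-54346967 at 12.4. The HOXC13 end therefore held only peaks listed by a single library.

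HOXD had a single region in all 3 libraries, chr2:176994150-176994609 (460 bp), 64.4 kb into the window and its widest. It stood at percentile 82.8 in normoxia, 75.4 in hypoxia 1 and 81.8 in hypoxia 2. The other, chr2:177005466-177005877, was in normoxia alone at 25.8. A cluster with 9 HOX genes thus showed CDK8 at 1 position that each library listed.

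In the flanks, the highest regions were listed in all 3 libraries, apart from 2 of those beside HOXD. Beside HOXA, chr7:26949856-26950210 stood at 85.4, 90.1 and 80.8, chr7:26903806-26904368 at 42.9, 7.92 and 74.3, and chr7:27702289-27702914 at 31.5, 69.2 and 54.8. Beside HOXB, chr17:47049640-47050108 stood at 97.8, 99.1 and 82.6, above every region of the HOXB window, chr17:46985413-46986359 at 89.8, 90.0 and 83.2, and chr17:46178417-46178947 at 74.0, 67.5 and 77.9. Unlike HOXA and HOXD, the HOXB and HOXC windows did not hold the best peak of their neighbourhood in any library. Beside HOXC, chr12:53846138-53846721 stood at 96, 81.1 and 88.5, chr12:53845559-53845921 at 70.2, 93.8 and 66.5, and chr12:54019894-54020365 at 89.4, 91.6 and 65.5. Beside HOXD, chr2:177133975-177134437 stood at 73.9, 68.7 and 63.0, chr2:177178535-177179060 was in normoxia alone at 72.3, and chr2:177486052-177486461 in hypoxia 1 alone at 65.2. The flank regions nearest to these borders lay 15.0 kb beyond HOXA (chr7:27274994-27275316, in hypoxia 1 alone), 19.8 kb before HOXB (chr17:46569839-46570207, in normoxia and hypoxia 2), 58.3 kb before HOXC (chr12:54261456-54261708, in hypoxia 1 alone) and 62.8 kb before HOXD (chr2:176866935-176867162, in normoxia alone). Inside the windows, the first region lay 15.9 kb from the start of HOXA and 12.4 kb from that of HOXC.

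By median score, the peaks of the 4 windows did not rank above those of the flanks. Their median percentile was 53.5 in normoxia, 45.2 in hypoxia 1 and 38.3 in hypoxia 2, against 56.9, 55.4 and 58.3 for the flank peaks. The clusters differed. In normoxia the window stood above its own flanks for HOXA (55.7 against 37.2) and HOXC (49.9 against 47.3). It stood below them for HOXB (58.1 against 69.3) and HOXD (54.3 against 72.3). These directions did not all hold in hypoxia. HOXA stood below its flanks in hypoxia 1 (56.9 against 59.1) and hypoxia 2 (31.2 against 74.3). So did HOXC (22.1 against 55.4, and 27.8 against 48.7) and HOXB (44.6 against 44.8, and 57.0 against 61.9). HOXD stood above its flanks in both (75.4 against 67.0, and 81.8 against 63.0). The HOXD medians rest on 1 to 3 peaks and those of the HOXA flanks on 3 to 5, and none was tested. The share in the best 20% of their list was 24.4%, 25.6% and 20.0% in the windows and 17.5%, 17.8% and 14.8% in the flanks, without a test. HOXA held 9 of 28, 8 of 25 and 3 of 11 such peaks, and HOXB 1 of 8, 2 of 8 and 0 of 6. HOXC held 0 in each library, and HOXD 1 of 2, 0 of 1 and 1 of 1.

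For the comparison of hypoxia with normoxia, each region was assigned to the libraries that listed it. No test between conditions was run, since with 1 library against 2 an exact permutation p cannot go below 0.333. Over all 28150 regions, 33.0% were in all 3 libraries, and in the HOX windows 17 of 52 (32.7%, Wilson interval 21.5 to 46.2). Those listed in hypoxia 1 and 2 but absent from normoxia made up 3.18% of all regions and 1 of 52 in the windows (1.92%, 0.340 to 10.1). That region, chr7:27136489-27136841, stood at percentile 35.6 in hypoxia 1 and 0.624 in hypoxia 2. Its neighbour chr7:27135714-27136113 was in all 3 libraries, at 46.2, 21.0 and 12.5. Regions in normoxia alone made up 13.2% of all regions and 12 of 52 in the windows (23.1%, 13.7 to 36.1). For the regions in both hypoxia libraries but not normoxia the HOX interval holds the background share. For those in normoxia alone the interval starts just above the background. Of the 12 regions in normoxia alone 7 lay in HOXA. With lists of equal length the windows held 7 such regions in all, and 13 rather than 17 in all 3 libraries. The share of each pattern over all regions was not worked out at that length, so the lower count is no change in share. Without a second normoxia library, a loss in hypoxia cannot be told apart from the spread between libraries.

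Normoxia listed 45 of the 52 HOX regions (86.5%, Wilson interval 74.7 to 93.3), against 68.7% of all regions. Hypoxia 1 listed 38 (73.1%, 59.7 to 83.2), against 74.7%, and hypoxia 2 listed 20 (38.5%, 26.5 to 52.0), against 48.3%. The normoxia interval lay above its background share, and those of both hypoxia libraries held theirs. Regions in hypoxia 1 alone were 4 of 52 in the windows (7.69%, 3.03 to 18.2) and 22.6% of all regions, so this interval lay below the background share. Their count depended on the overlap rule, and was 11 where an overlap of 50% of both peaks was required. Those in hypoxia 2 alone were 2 of 52 and 5.46%, and those in normoxia and hypoxia 2 but not hypoxia 1 were 0 of 52 and 6.65%.

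The hypoxia libraries also differed from each other. Regions that normoxia shared with hypoxia 1 alone made up 15.9% of the total, 16 of 52 in the windows (30.8%, 19.9 to 44.3) and 11 of 31 in HOXA (35.5%, 21.1 to 53.1). Of the regions that normoxia and hypoxia 1 shared, hypoxia 2 also listed 67.6% over all chromosomes. In HOXA it listed 10 of 21 (47.6%, 28.3 to 67.6), in HOXB 5 of 7, in HOXC 1 of 4 and in HOXD 1 of 1, and in the flanks 22 of 30 (73.3%, 55.6 to 85.8). The HOXA interval only just reaches the background share. Over the 4 windows hypoxia 2 listed 17 of 33 (51.5%, 35.2 to 67.5), an interval that ends just below that share. With the other libraries in the place of the third, the shares were 17 of 18 for normoxia (background 91.2%) and 17 of 17 for hypoxia 1 (background 83.2%).

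**Figure D4:**
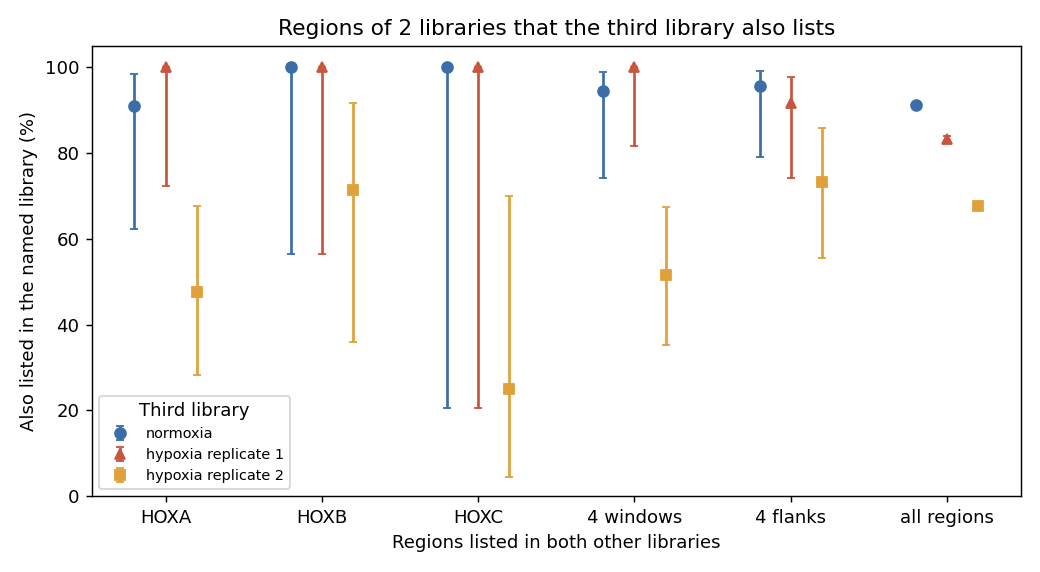
Share of the regions listed in 2 libraries that the remaining library also lists (y axis, percent, with Wilson 95% intervals), for HOXA, HOXB, HOXC, the 4 windows, their flanks and all regions; symbols name the remaining library. For hypoxia 2 the share is 47.6% in HOXA, 73.3% in the flanks and 67.6% over all regions.

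Among the highest scores the gap to the background was wider, though it rests on 4 HOXA regions. These stood at percentile 95 or more in normoxia and were also listed in hypoxia 1. Hypoxia 2 lacked 2 of these, chr7:27163549-27164159 and chr7:27210846-27211447, so its share was 50.0% (Wilson interval 15.0 to 85.0). Over all chromosomes hypoxia 2 listed 98.4% of 978 such regions and lacked 16. Both HOXA regions were thus among 16 in the whole data set, and no other pair of the 16 lay closer together than 407.1 kb, against 47.3 kb for the HOXA pair. The nearest peak of hypoxia 2 was 6032 bp from the first and 1004 bp from the second. This comparison was made after the values were seen. Hypoxia 2 also had the shortest list. With lists of equal length it listed 53.3% (30.1 to 75.2) of the shared HOXA regions, against 76.9% over all chromosomes. Only 1 of the hypoxia libraries lacked the HOXA pair, so hypoxia and normoxia did not separate at these regions.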

How the data were processed

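CDK8 ChIP-seq was analysed in 3 libraries of HCT116 cells. MACS2 2.0.9, Bowtie 0.12.7, CASAVA 1.8.2 and FastQC, with the build GRCh37/hg19, are named in the submitters' processing notes; the settings and the peak threshold are not given in the labels used here. Per CDK8 library the authors deposited 1 peak list, each line with a score per peak of unstated scale, whose minimum was 5.00 (normoxia), 5.01 and 5.05 (hypoxia 1 and 2). File names mark the lists as merged without saying what was merged. The score served only to rank peaks within a list.

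Starts count from 0 in the lists and from 1 here. Peaks were assigned to windows, and to the 500 kb either side, by an overlap of at least 1 bp. Densities have exact Poisson 95% intervals, ratios of densities exact conditional (Clopper-Pearson) intervals and shares Wilson intervals. A percentile is the share of a list scoring no higher. Every region of HOXB, HOXC and HOXD, the 12 of HOXA with the highest percentile and the 3 best of each flank are named. The windows, lists and comparisons were chosen with earlier results of these data known. Counting, joining and ratios were tested on simulated lists with 164 planted regions, with a total deviation of 0. RefSeq tables gave gene order and sequences; an item withheld for evaluation is not reported here. Software was scipy 1.17.1, pandas 2.3.3, numpy 2.4.6 and matplotlib 3.10.9 under Python 3.11.15. Alternatives tried were lists shortened to their better 50% or to one length, other flank widths, covered bases, peak centres, other joining and overlap rules, and leaving out either hypoxia library; the tiles, gaps, densest block and shares of the top-scoring regions were added after seeing the data.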

Additional observations from a re-analysis of the deposited data

How the results depend on the processing

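HOXA was the densest of the 4 windows in each of the 12 combinations of library and list setting. Its ratio to the flanks ran from 7.14 to 107.1 over 20 alternative values. Some combinations and values repeat the main ones, as with peak centres, so they are not separate checks. The highest ratio, for normoxia with the better-scoring 50%, had an interval of 16.5 to 4510. With the better-scoring 50% of each list, which shortens every list by construction, the windows held 23, 19 and 8 peaks in normoxia, hypoxia 1 and hypoxia 2. In hypoxia 2 the HOXA ratio was then 7.14 (0.957 to 53.3) and the ratio of HOXA to the other clusters 2.19 (0.339 to 11.2), both with intervals that hold 1. Region counts under that setting were 7 in all 3 libraries, 9 in normoxia and hypoxia 1 only and 0 in normoxia and hypoxia 2 only. There were 0 in both hypoxia libraries and not normoxia, 7 in normoxia alone, 2 in hypoxia 1 alone and 1 in hypoxia 2 alone. Lists shortened to 14256 peaks each gave 13 regions in all 3 libraries, 8 in normoxia and hypoxia 1 only and 3 in normoxia and hypoxia 2 only. They gave 1 in both hypoxia libraries and not normoxia, 7 in normoxia alone, 3 in hypoxia 1 alone and 3 in hypoxia 2 alone. Joining peaks within 500 bp gave 16 regions in all 3 libraries, 9 in normoxia and hypoxia 1 only and 0 in normoxia and hypoxia 2 only. It gave 0 in both hypoxia libraries and not normoxia, 6 in normoxia alone, 1 in hypoxia 1 alone and 1 in hypoxia 2 alone. Requiring an overlap of 50% of both peaks gave 10 in all 3 libraries, 16 in normoxia and hypoxia 1 only and 2 in normoxia and hypoxia 2 only. It gave 2 in both hypoxia libraries and not normoxia, 17 in normoxia alone, 11 in hypoxia 1 alone and 6 in hypoxia 2 alone. Leaving out a hypoxia library gave 17 to 33 regions shared by all libraries left, 12 to 28 in normoxia alone and 3 to 5 in hypoxia and not normoxia. The highest normoxia-alone count, 28, came without hypoxia 1. The number of HOX regions changes with the setting. The shares of these patterns over all regions were not worked out for the alternatives, so the counts cannot be compared as shares. The share of HOXA regions of normoxia and hypoxia 1 that hypoxia 2 also listed was 53.3% (30.1 to 75.2) with equal list sizes, against 76.9% over all regions. With the better-scoring 50% it was 27.3% (9.75 to 56.6), against 63.7%. With joining within 500 bp it was 60.0% (35.7 to 80.2), against 69.7%. Of these intervals only the last held the share over all regions. Beyond fewer peaks or another rule of joining, the cause was not tested. No paired analysis was possible because normoxia has 1 library without a replicate number. Without read counts, an unlisted peak may lie just under the threshold of its list.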
